A study of Mus musculus with 2 samples.

Results

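The 38 Hox genes described here are members of the 4 mouse Hox clusters, Hoxa on chromosome 6, Hoxb on chromosome 11, Hoxc on chromosome 15 and Hoxd on chromosome 2. They were chosen by name and ordered along each cluster by paralog group, and they stand among 21938 protein-coding genes of the annotation. Hoxa and Hoxb gave 10 members each, and Hoxc and Hoxd gave 9 each. The data are DNase-seq, in which sites of open chromatin are mapped by sequencing the ends cut by the enzyme DNase I in nuclei. Whole kidney of male B6CASTF1/J mice aged 25 days was assayed in 2 libraries, which form 1 group with no treatment and no control group. B6CASTF1/J is a first-generation hybrid strain. The libraries carry different biosample and animal numbers but the same donor code, so whether they are fully separate animals rests on those labels. Values are given in the order replicate 1 and then replicate 2, n = 2, and no test between groups was possible.

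Hox genes encode homeodomain transcription factors that give cells their position along the body axis. Within a cluster the genes lie in order: low-numbered paralog groups act towards the head and are switched on early, and high-numbered groups act towards the tail, the limb tips and the genitalia. Polycomb proteins hold silent Hox genes in compact chromatin, Trithorax proteins maintain active ones, and CTCF with cohesin can separate active from silent stretches of a cluster. In the kidney the group 11 genes Hoxa11, Hoxc11 and Hoxd11 are known as joint regulators of the first steps of nephron formation, and Hoxb7 is known as a gene of the ureteric bud and the collecting ducts.

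CTCF matches in peaks that both libraries shared are shown first, since CTCF is known to separate stretches of the clusters, and then 3 of the peaks beyond or among the open genes. A peak is a stretch called as open in a library, and its height is the authors' signal value. Coordinates are on mm10, and sequences were read from GRCm38, on which mm10 is based. A 12-letter form of the CTCF motif, searched on both strands, occurred in 4 peaks that both libraries shared. Each match is printed with 9 bases on either side, 5′ to 3′ on the strand of the match, with the match in capitals. The matches at Hoxa7, Hoxa10 and between Hoxd12 and Hoxd13 were on the minus strand, and the match between Hoxd4 and Hoxd8 was on the plus strand.
Hoxa7, chr6:52221800-52221829: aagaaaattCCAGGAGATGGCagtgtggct
Hoxa10, chr6:52240532-52240561: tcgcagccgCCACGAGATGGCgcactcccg
Hoxd12 to Hoxd13, chr2:74673169-74673198: gccaaacgcCCAGGAGATGGCgagcgtgct
Hoxd4 to Hoxd8, chr2:74715912-74715941: gagctttgtCCAGGAGGAGGCgctgtagga

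A footprint is a short protected stretch within cut DNA, listed by the authors at a false discovery rate of 0.01. Each of the 4 matches was overlapped by 1 footprint in replicate 1 and 1 in replicate 2. The peak at Hoxa7 had a height of 14.8 and 12.6, the peak at Hoxa10 12.2 and 12.6, and the peak in the introns of the Hoxd3 and Hoxd4 records 12.9 and 12.3. The peak between Hoxd12 and Hoxd13, outside annotated genes, was lower, at 2.94 and 1.82.

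The next 3 peaks, whole and on the plus strand, lay outside annotated UTRs. They are shown because the first 2 stood beyond Hoxa11 and Hoxb9, and the other was the highest Hoxc peak of replicate 1. Another peak read with them, between Hoxd8 and Hoxd9 at 7.54 and 7.71, is not printed. It held no match to any motif searched. Capitals mark matches to AGNNGGCGC or its reverse complement, the right-hand letters of the CTCF motif, and in the first sequence also a match to the MEIS motif TGACAG on the minus strand. The shorter motif was added after the sequences of the peaks had been read.
Hoxa11 to Hoxa13, chr6:52257041-52257220: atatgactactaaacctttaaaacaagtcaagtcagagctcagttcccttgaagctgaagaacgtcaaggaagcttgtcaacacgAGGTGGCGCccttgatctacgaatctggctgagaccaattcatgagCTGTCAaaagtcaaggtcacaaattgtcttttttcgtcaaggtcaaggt
Hoxb9 to Hoxb13, chr11:96261661-96261820: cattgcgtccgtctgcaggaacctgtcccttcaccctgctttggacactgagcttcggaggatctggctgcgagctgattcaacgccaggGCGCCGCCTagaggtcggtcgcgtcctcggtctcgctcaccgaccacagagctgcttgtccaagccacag
Hoxc8 to Hoxc9, chr15:102987541-102987700: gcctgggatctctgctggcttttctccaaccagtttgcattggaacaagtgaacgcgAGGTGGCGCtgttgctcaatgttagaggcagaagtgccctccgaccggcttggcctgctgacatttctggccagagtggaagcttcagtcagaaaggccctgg

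The Hoxa peak lay in an exon of the noncoding gene 9530018H14Rik, 3750 bp from the 5′ end of Hoxa13, with a height of 5.44 and 10.7. The Hoxb peak lay in an exon of the noncoding gene Gm53, 9717 bp beyond the 5′ end of Hoxb9 on the Hoxb13 side, and reached 9.93 and 10.2. The peak between Hoxc8 and Hoxc9 lay in an intron of the long Hoxc5 record and reached 13.3 and 18.2. In all 3 peaks a footprint overlapped the match to AGNNGGCGC in both libraries. Of the 17 shared cluster peaks with these letters, 11 had such a footprint in both.

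Hox promoters were open about as often as those of other genes. A gene was called open where a peak overlapped the 500 bp on either side of the 5′ end of its gene record. In both libraries 26 of the 38 members were open, 68.4%, beside 61.6% of all 21938 genes. Replicate 1 alone had 27 open members beside 62.5% of all genes, and replicate 2 alone had 30 beside 64.7%. A total of 7 members had no peak in either library: Hoxa13, Hoxb1, Hoxb3, Hoxb13, Hoxc4, Hoxd11 and Hoxd12. None of their windows held a single base at a false discovery rate up to 0.05 in either library. The median height at the 5′ end was 2.29 and 2.20 over all members and 1.79 and 1.73 over all genes, with genes without a peak at 0. Among open genes the order was the other way, with medians of 3.91 and 2.96 for the members and 7.20 and 6.37 for all genes. In whole tissue, a low peak in all cells and a high peak in few cells cannot be told apart.

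CpG-rich promoters are open in most tissues, and 30 of the 38 members fell in the upper 50% of genes by CpG observed over expected. Of those 30 members, 22 were open in both libraries, beside 94.2% of all genes in that upper share. Hoxa13, which patterns the limb tips, genital tubercle and hindgut, had a CpG ratio of 0.93 and no peak, and Hoxd13, which patterns the digits, had 0.91 and a peak of 0.546 in replicate 2 only. Of the 8 members in the lower share, 4 were open in both libraries. Over all genes 13510 were open in both, and 10334 of those lay among the 10969 genes of the upper share. Genes of the lower share were thus open far less often, and the members fell short of all genes in the upper share only.

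The footprints followed the peaks, but they are called inside accessible sequence and so are not independent of peaks. A footprint within 500 bp of the 5′ end was listed in both libraries for 25 members, beside 58.8% of all genes. Hoxa7, known for patterning the trunk skeleton, had the most, 14 and 15. The windows of the 7 genes without a peak held none.

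Fewer 5′ ends were open in groups 11 to 13 than in the lower groups. Of the 11 genes of groups 1 to 4, 8 were open in both libraries, and of the 11 genes of groups 5 to 8, 9 were. All 7 genes of groups 9 and 10 were open in both. Of the 9 genes of groups 11 to 13, 2 were open in both, Hoxa11 and Hoxc13. In this order the shares were 72.7%, 81.8%, 100% and 22.2%, beside 61.6% of all genes. Among the 3 group 11 genes, Hoxa11 had 1.56 and 1.62, Hoxc11 had 0.641 in replicate 1 and no peak in replicate 2, and Hoxd11 had no peak at its record 5′ end in either library. At the start codon of Hoxd11, which lies 2836 bp from that end, replicate 2 had a peak of 0.825 and replicate 1 had none.

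**Figure D1:**
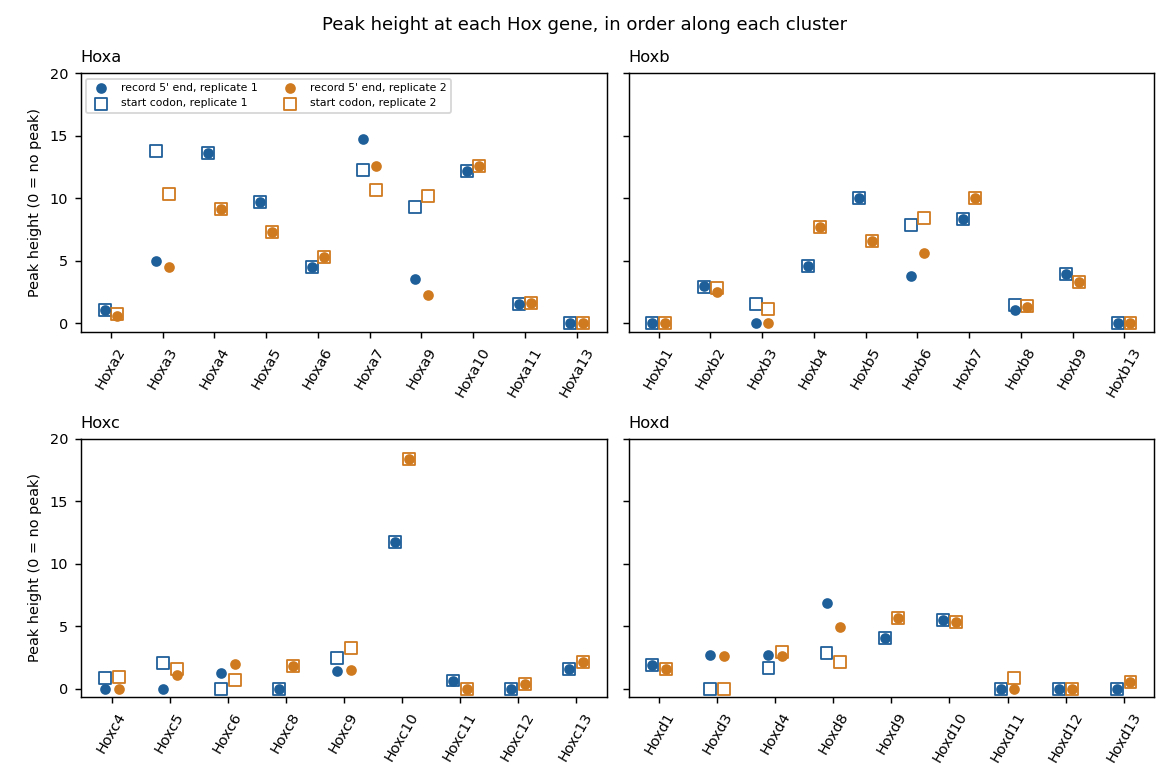
Height of the highest peak within 500 bp of each Hox gene's record 5′ end (dots) and start codon (open squares), by cluster, blue for replicate 1 and orange for replicate 2; 0 means no peak. Hoxc10 stands highest in replicate 2 at 18.3, and Hoxa13, Hoxb1, Hoxb13 and Hoxd12 lie at 0 in both libraries at both places.

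The Hoxa cluster was open from its low end through Hoxa11. Hoxa2, a gene of the hindbrain and branchial arches, had the lowest open promoter of the cluster, at 1.03 and 0.601. Hoxa3, needed for the thymus and parathyroid, had 4.96 and 4.47 at its record 5′ end and 13.7 and 10.3 at its start codon, 40687 bp away. Hoxa4 had 13.6 and 9.14, and Hoxa5, a regulator of lung development, had 9.70 and 7.27. Both libraries thus placed these genes well above Hoxa2.

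Farther along, Hoxa6 had 4.48 and 5.27, and Hoxa7 had 14.8 and 12.6. Hoxa9, a gene of blood stem cells as well as of the axis, had 3.54 and 2.27 at the record 5′ end and 9.32 and 10.2 at the start codon. Hoxa10, known for patterning the uterus, had 12.2 and 12.6. Openness then fell away in both libraries over 1 gene: Hoxa11 had 1.56 and 1.62, and Hoxa13 had no peak. The border, defined as the split along the gene order that left the fewest genes on the wrong side, lay between Hoxa11 and Hoxa13 with 0 genes against it. With the authors' stricter peak list, Hoxa11 was no longer open in both libraries and the border moved to between Hoxa10 and Hoxa11.

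In the Hoxb cluster the border lay between Hoxb9 and Hoxb13, with 2 genes against it, Hoxb1 and Hoxb3. Hoxb1, a gene of the hindbrain, had no peak within 500 bp of its 5′ end in either library, and its nearest peaks were 1009 and 989 bp away. Hoxb3 had none at its record 5′ end but 1.55 and 1.12 at its start codon, 20923 bp away. Hoxb2 had 2.97 and 2.52, Hoxb4 had 4.58 and 7.69, and Hoxb5 had 10.0077 and 6.56.

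Hoxb6 had 3.75 and 5.64 at the record 5′ end and 7.83 and 8.42 at the start codon. Hoxb7 had 8.31 and 10.03, Hoxb8 had 1.08 and 1.32, and Hoxb9 had 3.91 and 3.33. Hoxb8 thus lay below both of its neighbours in both libraries. Hoxb13, a gene of the tail and the prostate, had no peak, and the nearest one was 4385 bp away in both libraries.

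The Hoxc cluster had no single border. Only 4 of its 9 genes were open in both libraries, and splits before Hoxc4 and between Hoxc10 and Hoxc11 each left 4 genes on the wrong side. Hoxc10, a gene of the lumbar spinal cord, stood far above the others with 11.7 and 18.3. Hoxc6 had 1.26 and 1.94, Hoxc9 had 1.39 and 1.46, and Hoxc13, known for hair and nails, had 1.53 and 2.13. Hoxc13 was thus open at the far end of the cluster in both libraries.

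Most members that differed between the libraries lay in Hoxc. A total of 5 members were open in 1 library only, beside 3.98% of all genes, and 4 of them were Hoxc genes. Replicate 2 alone had peaks at Hoxc5 (1.08), Hoxc8 (1.76) and Hoxc12 (0.368), and replicate 1 alone had one at Hoxc11 (0.641). The member outside Hoxc was Hoxd13. Hoxc4 had no peak at its record 5′ end and 0.855 and 0.929 at its start codon, and Hoxc5 had 2.03 and 1.53 at its start codon.

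At the record 5′ ends, Hoxd genes were open in both libraries from Hoxd1 through Hoxd10 and none was beyond. The border between Hoxd10 and Hoxd11 had 0 genes against it. Hoxd1 had 1.91 and 1.58. Hoxd3 and Hoxd4 have record 5′ ends only bases apart and shared 1 peak of 2.67 and 2.58, so they are not independent. Those ends lie 32085 bp (Hoxd3) and 15350 bp (Hoxd4) from the start codons, so that peak does not show open chromatin there. At the start codons Hoxd3 had no peak in either library and Hoxd4 had 1.63 and 2.89. By start codons the border lay at the same place, with 1 gene against it, Hoxd3.

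Hoxd8 had 6.86 and 4.92, Hoxd9 had 4.08 and 5.60, and Hoxd10 had 5.50 and 5.35. These 3 neighbours overlapped in height and were ordered differently in the 2 libraries. Beyond them Hoxd11 and Hoxd12 had no peak. The peak at Hoxd13, present in replicate 2 only, was 0.546 high, in the lowest 8.44% of open promoters of that library.

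The calls moved with the width of the window. Within 250 bp 20 members were open in both libraries, 6 in Hoxa, 5 in Hoxb, 3 in Hoxc and 6 in Hoxd, beside 58.8% of all genes. Just inside the 500 bp limit, the peak of Hoxc11 in replicate 1 began 414 bp from the 5′ end. Just outside it, the nearest peak to Hoxa13 was 619 bp away in replicate 2, and the nearest to Hoxc5 was 743 bp away in replicate 1. With the start codon in place of the record 5′ end, 27 members were open in both libraries, beside 46.6% of all genes. With the stricter peak list 21 were, beside 58.1%.

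**Figure D2:**
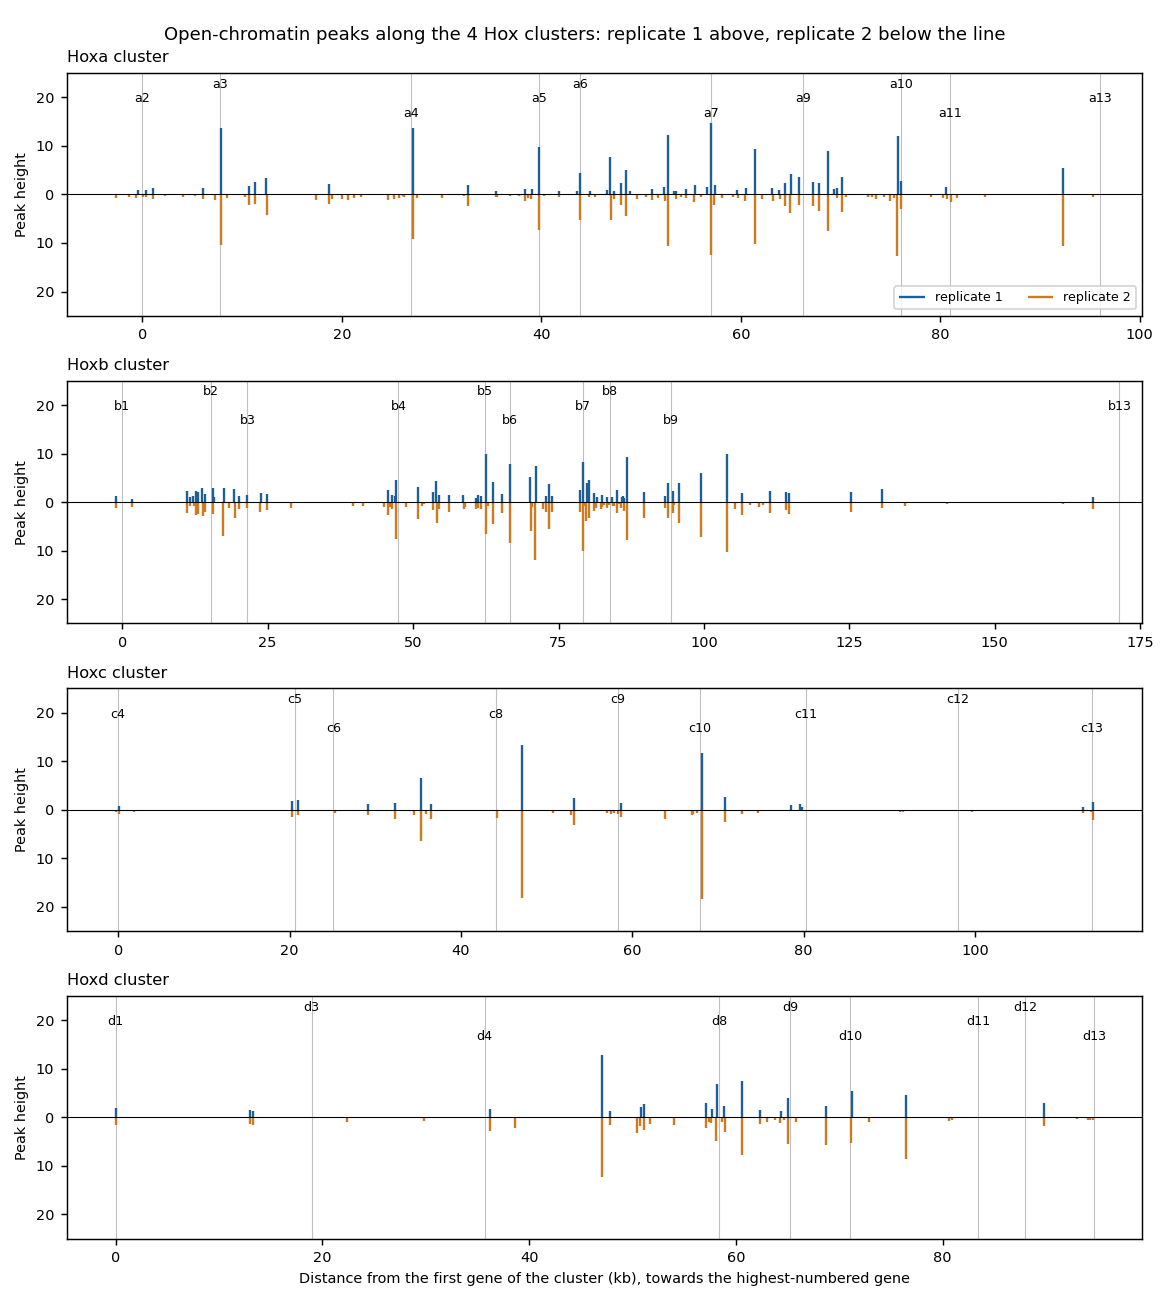
Peak height along each cluster against distance in kb from its first gene, towards the highest-numbered gene, with replicate 1 drawn upwards and replicate 2 downwards; grey lines mark the genes (a2 is Hoxa2). Peaks crowd the middle of Hoxa and Hoxb, Hoxc holds few peaks besides those at Hoxc10 and before Hoxc9, and Hoxd peaks gather between Hoxd4 and Hoxd10.

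Between the genes, Hoxa and Hoxb held peaks more densely than Hoxd and Hoxc. The 34 segments ran from one gene to the next, without the 500 bp next to each segment end. For 8 genes that end was the start codon, so peaks at their record 5′ ends could count as between genes. In the Hoxa segments there were 0.437 and 0.919 peaks per kb, in Hoxb 0.339 and 0.474, in Hoxd 0.162 and 0.300, and in Hoxc 0.0947 and 0.246. Both libraries gave this order. The values of Hoxa and Hoxb overlapped between libraries, as did those of Hoxd and Hoxc, while both values of Hoxa and of Hoxb lay above all values of Hoxd and Hoxc. Over 12990 segments between neighbouring protein-coding genes, Hox genes included, all bounded by record 5′ ends, the pooled density was 0.0729 and 0.105. Those segments ran from 4.136 to 77.142 kb, the range of the Hox segments, but were not otherwise matched to them in length. A peak in both libraries was found in 27 of the 34 segments, 79.4%, beside 63.9% of those 12990 segments. Replicate 1 alone had a peak in 27 segments beside 66.3%, and replicate 2 alone in 32 beside 72.4%. By cluster these were 8 of 9 in Hoxa, 9 of 9 in Hoxb, 4 of 8 in Hoxc and 6 of 8 in Hoxd.

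Footprints per kb, which are not independent of the peaks, ranked the clusters the same way in both libraries. Hoxa segments had 0.942 and 2.96 footprints per kb, Hoxb 0.800 and 1.85, Hoxd 0.358 and 1.11, and Hoxc 0.275 and 0.682. Over the 12990 segments between neighbouring protein-coding genes the values were 0.146 and 0.305. Replicate 2 had 177001 peaks and 493495 footprints in all, against 125393 and 237471 in replicate 1, and the higher densities of replicate 2 inside the clusters stand beside that gap in list length, whose part in them was not tested.

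**Figure D3:**
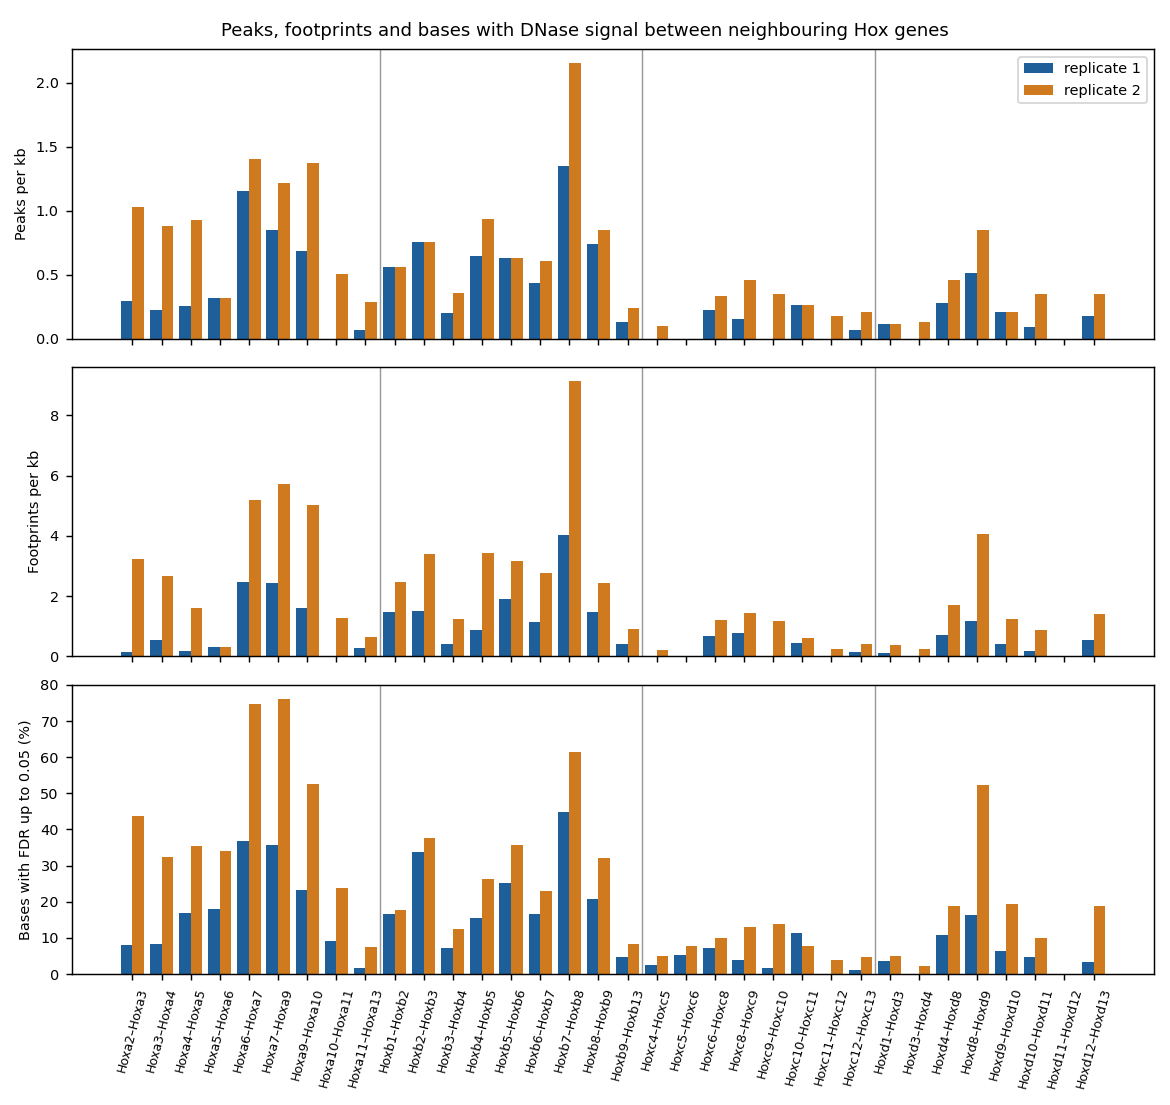
Peaks per kb, footprints per kb and the percentage of bases with a false discovery rate up to 0.05 in each segment between neighbouring Hox genes, ordered along each cluster (blue replicate 1, orange replicate 2). Peaks per kb are highest between Hoxb7 and Hoxb8, and in Hoxd between Hoxd8 and Hoxd9, and between Hoxd11 and Hoxd12 all 3 measures are 0. Peaks and footprints leave out the 500 bp next to each segment end, and the percentage of bases includes them.

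The segment between Hoxb7 and Hoxb8 had the highest density of peaks in both libraries: its 3.717 kb held 5 and 8 peaks and 15 and 34 footprints. The next in both was the one from Hoxa6 to Hoxa7, where 12.131 kb held 14 and 17 peaks and 30 and 63 footprints. Those counts include peaks at the record 5′ end of Hoxa3, up to 4.96 and 4.47 high, which lies inside that segment. The rank without them was not computed. Between Hoxa7 and Hoxa9 there were 0.850 and 1.21 peaks per kb, between Hoxa9 and Hoxa10 0.685 and 1.37, between Hoxb2 and Hoxb3 0.758 and 0.758, and between Hoxb8 and Hoxb9 0.741 and 0.847. The libraries thus ordered these 4 segments differently. In Hoxd, the 5.887 kb between Hoxd8 and Hoxd9 held 3 and 5 peaks and 7 and 24 footprints, the highest densities of that cluster. All of these segments lay on the open side of the border of their cluster.

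The signal in the middle of Hoxa was broad as well as dense. Bases listed at a false discovery rate up to 0.05 made up 1.33% and 1.86% of the genome, 16.6% and 41.7% of the Hoxa cluster, 11.6% and 17.0% of Hoxb, 5.69% and 13.4% of Hoxd and 3.76% and 7.80% of Hoxc. Between Hoxa7 and Hoxa9 they made up 35.7% and 76.2%. The longest unbroken run of such bases in Hoxa was 1741 bp in replicate 1, over the 5′ end of Hoxa5, and 2923 bp in replicate 2, between Hoxa9 and Hoxa10. In Hoxb the longest runs were 1104 and 1199 bp. The libraries thus stood much farther apart in Hoxa than in Hoxb. These shares were computed after the peak results had been seen.

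Past the group 10 gene, or past Hoxb9 in Hoxb, peaks between the genes were sparser in Hoxa and Hoxb in both libraries. In Hoxa the density went from 0.536 and 1.07 peaks per kb up to Hoxa10 to 0.0555 and 0.333 beyond it. The 18.024 kb beyond Hoxa10 held only 1 and 6 peaks. In Hoxb it went from 0.522 and 0.684 to 0.131 and 0.236. In Hoxc the values were 0.0954 and 0.270 before and 0.0937 and 0.211 after, nearly level in replicate 1. In Hoxd they were 0.182 and 0.303 before and 0.0970 and 0.291 after, where 20.611 kb held 2 and 6 peaks. Between the genes of Hoxd the density was thus lower beyond Hoxd10 in replicate 1, on those 2 peaks only, and nearly level in replicate 2.

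The longest stretches without a peak lay at the closed end in Hoxa and Hoxb, and at the low end in Hoxd. In Hoxa the longest ran 11.5 and 7.67 kb, from Hoxa11 towards Hoxa13 in both libraries, and ended at the Hoxa11 to Hoxa13 peak printed above. In Hoxb it ran 36.16 and 19.999 kb, between Hoxb9 and Hoxb13. In Hoxc replicate 1 had 32.6 kb without a peak from Hoxc11 past Hoxc12 towards Hoxc13, while the longest such stretch in replicate 2, 17.6 kb, lay between Hoxc4 and Hoxc5. In Hoxd the longest stretches lay at the low end, 22.7 kb from Hoxd4 past Hoxd3 in replicate 1 and 12.7 kb between Hoxd1 and Hoxd3 in replicate 2. The segment between Hoxd11 and Hoxd12 held no peak, no footprint and no base at a false discovery rate up to 0.05 in either library.

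Single peaks stood inside the closed stretches. Between Hoxd10 and Hoxd11 a peak at chr2:74686401-74686580, in an exon of the Hoxd11 record, reached 4.50 and 8.51. It and the peak between Hoxd12 and Hoxd13 were the only peaks of replicate 1 beyond Hoxd10. In Hoxa the Hoxa11 to Hoxa13 peak was likewise the only one of replicate 1 in its segment, and replicate 2 had 3 more there. On the open side of Hoxa, the highest peak counted in a segment, at chr6:52217481-52217660, reached 12.2 and 10.6807. That peak lay inside a gene, in a UTR of Hoxa7 within 500 bp of its start codon. In replicate 2 the Hoxa11 to Hoxa13 peak, at 10.7106, was as high.

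The surroundings of the clusters held fewer peaks, with 1 exception. In the 100 kb beyond the low and high ends, Hoxa had 0.11 and 0.17 and then 0.06 and 0.08 peaks per kb, and Hoxb had 0.09 and 0.12 and then 0.05 and 0.06. Both clusters lay above both of their surroundings in both libraries. Hoxd had 0.02 and 0.02 beyond Hoxd1, and 0.08 and 0.15 beyond Hoxd13. Hoxc had 0.20 and 0.30 beyond Hoxc4, which is more than inside the cluster, and 0.01 and 0.02 beyond Hoxc13.

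**Figure D4:**
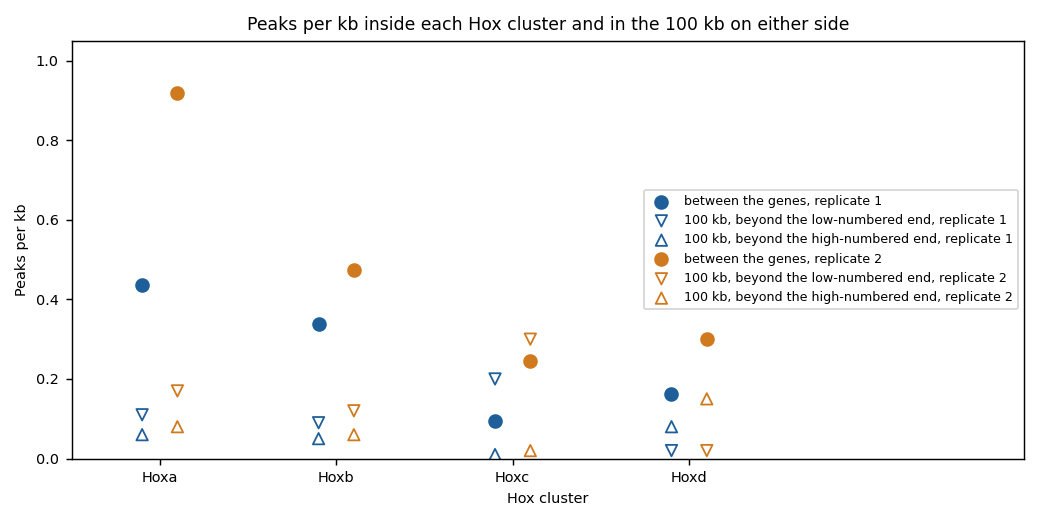
Peaks per kb between the genes of each cluster (dots) and in the 100 kb beyond its low-numbered (downward triangles) and high-numbered end (upward triangles), blue for replicate 1 and orange for replicate 2. Hoxa and Hoxb stand above both of their surroundings, and Hoxc stands below the 0.20 and 0.30 of its low-numbered side.

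The libraries shared nearly all peaks of replicate 1. Of its 157 peaks in the clusters, 147 overlapped a peak of replicate 2 by at least 1 bp, 93.6%, beside 87.6% of all its peaks. Of the 271 cluster peaks of replicate 2, 149 overlapped one of replicate 1, 55.0%, beside 62.2% of all its peaks. The median log2 ratio of heights, replicate 2 over replicate 1, was 0.00 with an SD of 0.42 over shared cluster peaks and 0.18 with an SD of 0.50 over all shared peaks. The share of replicate 2 peaks that were also in replicate 1 was lowest in Hoxc, 35.0%, and highest in Hoxb, 71.0%.

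The letters searched in the middle 150 bp of each peak, on both strands, are given as the share of peaks that held them. The 12-letter form of the CTCF motif was in 2.55% and 2.21% of cluster peaks and 9.64% and 8.82% of all peaks. The shorter AGNNGGCGC, which overlaps it and was added after the sequences had been read, was in 10.8% and 7.38% of cluster peaks and 6.50% and 5.36% of all peaks. The cluster peaks counted include those it was read from, so these shares are not independent of that choice.

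TTTATNG, bound by HOX proteins of the high-numbered groups, was in 6.37% and 7.01% of cluster peaks and 3.62% and 4.0045% of all peaks. TGATTNAT, bound by PBX with HOX, was in 2.55% and 1.85% beside 1.51% and 1.70%, and its matches can overlap those of the HOX motif. The MEIS letters TGACAG were in 5.73% and 6.27% beside 11.2% and 11.5%. The SP letters CCCGCC were in 27.4% and 19.2% beside 16.4% and 13.6%, and the TEAD letters GGAATG in 7.01% and 6.27% beside 9.41% and 9.88%. CAAAGTCCA (HNF4) and CCATNTTG (YY1) were each in at most 2 cluster peaks of a library, and the motifs of HNF1 and NFI were in none. Cluster peaks were richer in G and C, at 61.0% and 58.3% against 55.2% and 54.0% over all peaks, and its part in these shares was not tested.

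Other genes of the pathway were taken as 7 lists: HOX cofactors, Polycomb, Trithorax and demethylases, looping, Cdx and ParaHox, neighbours of the clusters, and partners of the group 11 genes in the kidney. Over their 58 genes, 47 had a peak at the 5′ end in both libraries, beside 61.6% of all genes. All 9 genes of HOX cofactors were open, among them Pknox1 at 15.5 and 23.3 and Pbx3 at 18.4 and 12.8, whose products bind DNA together with HOX proteins. The list's median was 4.66 and 4.87, beside 1.79 and 1.73 over all genes.

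Of the 13 Polycomb genes 12 were open, with Cbx8 at 19.9 and 22.3, Ezh2, the methyltransferase of the complex, at 16.5 and 15.0, and Eed at 13.3 and 11.2. Cbx7 had no peak at its record 5′ end, but its highest peak at any annotated start was 10.8 and 10.6. Of the 9 Trithorax and demethylase genes 7 were open, with Kdm6a, which removes the Polycomb mark, at 15.8 and 20.8, Kmt2a at 20.0324 and 10.8, and Wdr5 at 20.1 and 10.4. Ash2l and Dpy30 had none at the record 5′ end, but their highest peaks at any annotated start were 5.999 and 7.01 for Ash2l and 5.14 and 3.55 for Dpy30. All 6 looping genes were open, with Smc3 at 25.7 and 21.2, Rad21 at 15.96 and 15.8, and Nipbl, the cohesin loader, at 10.04 and 8.39.

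Counts differed between the other lists. Of the 5 Cdx and ParaHox genes, which include upstream activators of posterior Hox genes, 1 was open in both libraries, Gsx1 at 2.35 and 2.36, and Cdx1 and Cdx2 had no peak. Of 7 partners of the group 11 genes in kidney formation 6 were open, with Sall1 at 7.94 and 4.22 and Pax2 at 3.68 and 2.93. The list's median was 1.27 and 1.048, below that of all genes. Of 9 neighbours of the clusters 6 were open. Skap2 beyond the Hoxa low end had 23.4 and 26.3, Cbx5 beyond Hoxc 17.2 and 16.8, and Lnpk beyond Hoxd 10.1 and 8.17. Evx1 next to Hoxa13 had none and Evx2 next to Hoxd13 had 0.378 in replicate 2 only.

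The kidney label was checked against markers at the same 5′ ends. Of 6 proximal tubule markers 5 were open in both libraries, with Lrp2 at 6.93 and 4.53, and all 3 loop of Henle markers were open, with Umod at 1.64 and 2.34. The defining markers of immune cells, liver, neurons, skeletal muscle and male germ cells on the lists, 11 genes in all, had no peak at the 5′ end in either library.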

How the data were processed

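Peaks and footprints of 2 DNase-seq libraries of mouse kidney, 1 group, were analysed. Per the file descriptions deposited with each library, each library's filtered alignments gave its own peaks and footprints, with no pooling. The build is mm10, per the labels. For aligner and callers, names and versions: not given in the sources used here. Each deposited signal value is the height of each peak. How the authors divided it by depth is unknown, and so are the read numbers, so no counting interval is given. The footprint list deposited by the authors carries a q-value of 0.01 in every row, read as a threshold, and the deposited q-values per base were listed only up to 0.05. The longer of the deposited peak lists was used and the stricter one served as an alternative. Reads of the hybrid's other parental strain that failed to align would lower peaks.

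Genes came from the basic set of GENCODE M21, and bases from RefSeq GRCm38.p6. The 5′ end was that of the gene record. For segments between neighbours, 8 genes whose record begins nearer to another member's start codon than to their own (Hoxa3, Hoxb3, Hoxb6, Hoxc4, Hoxc5, Hoxc6, Hoxd3 and Hoxd4) were bounded by their start codon, a choice made after the annotation had been seen. Overlap meant at least 1 bp. The border minimised the number of genes against open before and closed after. Percentages over all genes or segments used the same calls. Every member was described, with per-library values in full for genes next to a border, the 3 highest genes of each cluster and genes open in 1 library. From each list up to 3 open and 3 closed genes were eligible to be named. A few items that this rule would name are not reported here. The members and lists were chosen with earlier results of these data known. Counting and border steps were checked on simulated data, the border step only on orders with no gene against the border and no ties. Python 3.11.15, pandas 2.3.3, numpy 2.4.6, pysam 0.24.0 and matplotlib 3.10.9 were used. Alternatives were other windows, other starts, the stricter list, the upper 50% of peaks, summed heights, other flank sizes and each library left out.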

Additional observations from a re-analysis of the deposited data

How the results depend on the processing

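No paired analysis was possible because both libraries form 1 group. Of the 148 values of comparisons recomputed under an alternative, 119 kept within the spread of the libraries or within 1.5 times of the count, and 29 moved. The Hoxb border stayed after Hoxb9 under each alternative run, alone or tied. Borders are given as the number of genes before them, at the later of any tied splits. The Hoxa border moved from 9 to 8 genes within 250 bp, with the stricter list and with start codons on the stricter list. The Hoxc border, at 6 genes in a tie, moved to 0 within 250 bp and with the stricter list, and lay at 9 without replicate 1, without replicate 2 and with start codons under either of these. The Hoxd border moved from 6 to 8 within 2000 bp, and start codons gave 9 without replicate 1, both as ties. Peaks per kb in Hoxb, averaged over libraries, fell to 0.289 with the stricter list from 0.406. The share of segments with a peak was 94.1% without replicate 1 and 79.4% without replicate 2. The median height of members open in both libraries, averaged over libraries, was 4.34, and 5.23 with summed heights or 4.97 with the stricter list. In the flanks, mean peaks per kb beyond the high end were 0.12 (50 kb) and 0.055 (200 kb) against 0.07 for Hoxa, 0.04 and 0.13 against 0.055 for Hoxb, 0.1025 (200 kb) against 0.015 for Hoxc and 0.17 (50 kb) against 0.115 for Hoxd. Beyond the low end they were 0.0825 (200 kb) against 0.105 for Hoxb, and 0 (50 kb) and 0.0475 (200 kb) against 0.02 for Hoxd. Searching whole peaks raised the mean shares to 2.75% for PBX with HOX, 9.31% for high-numbered HOX, 7.01% for MEIS, 29.9% for SP and 8.75% for TEAD. The start-codon alternatives combined with another choice were added after the data had been seen. Unknown depth limits the calls at low peaks such as those of Hoxc.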
